A study of Homo sapiens with 12 samples.

Results

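The transcripts of the 4 human eIF2 alpha kinases and of the 2 inducible or constitutive regulators of the phosphatase that opposes them were measured in A549 cells, a lung carcinoma line of epithelial origin. The 6 genes were chosen by symbol: EIF2AK1, EIF2AK2, EIF2AK3, EIF2AK4, PPP1R15A and PPP1R15B. They are 6 of 58626 genes in the deposited table, and all 6 passed the filter of at least 1 FPKM (fragments per kilobase of transcript scaled to the library, a level per length of RNA) in at least 1 group, which kept 22087 genes. The study used parental cells (WT) and a derivative lacking RNase L (RLKO), the endoribonuclease that cleaves single-stranded RNA once double-stranded RNA has been sensed. Cells of either genotype were left untreated or were collected 6 h after transfection of 500 ng/ml poly(I:C), which mimics viral double-stranded RNA. Total RNA was sequenced from 3 samples for each of the 4 groups, 12 in all, with ERCC spike-in RNAs added before ribosomal RNA was depleted. The sources used here do not say how RNase L was removed or whether the RLKO cells are 1 clone.

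Phosphorylation of the alpha subunit of eIF2, the factor that carries the initiator tRNA to the ribosome, blocks the exchange factor eIF2B and so lowers translation initiation. Each of the kinases answers another stress: EIF2AK1 (HRI) heme shortage and mitochondrial stress, EIF2AK2 (PKR) double-stranded RNA, EIF2AK3 (PERK) unfolded proteins in the endoplasmic reticulum, and EIF2AK4 (GCN2) amino acid shortage. PPP1R15A (GADD34) and PPP1R15B (CReP) bring protein phosphatase 1 to eIF2 alpha and reverse the mark. PPP1R15A is known as a stress-induced gene and PPP1R15B as a constitutively expressed one, while EIF2AK2 is known as an interferon-stimulated gene.

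The deposited table gives 1 FPKM value per group, pooled by the authors over its samples, so no value has an SD and the read depth is unknown. The words rose and fell are kept for genes with q under 0.05 by Cuffdiff, as the authors' deposited table lists it for treated against untreated cells of a genotype. In these bulk samples, fewer cells and less RNA per cell cannot be told apart. The 2 genotypes were not tested against each other in that table, and all comparisons between them are descriptions. The epithelial keratins KRT8 (318 to 944 FPKM) and KRT18 (256 to 750 FPKM) were abundant, EPCAM (0.558 to 1.03 FPKM) and CDH1 (2.93 to 4.52 FPKM) were low, and the leukocyte marker PTPRC did not exceed 0.0421 FPKM. The fibroblast collagen COL1A1 was listed at 2.06 to 7.17 FPKM. The ERCC RNAs stood 1.53 times higher in treated than untreated WT libraries and 1.13 times higher in RLKO (medians over 49 of them). In WT 48 of the 49 were higher after treatment, with log2 quartiles of 0.42 and 0.86. In RLKO 32 were, and the log2 quartiles of -0.13 and 0.29 lay on either side of 0. The quartiles were about equally far apart in the 2 genotypes. Small RLKO changes rest on a factor whose direction fewer of the ERCC RNAs shared. Changes are therefore given on a spike-in scale, as the log2 of the level divided by the spike-in factor after adding 1. On this scale 12181 protein-coding genes had a median of -0.70 in WT and -0.24 in RLKO, against -0.17 and -0.10 without the spike-in factor.

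The sequence upstream of 3 of the genes is shown because these 3 had the largest increases of the 6 after poly(I:C) in both genotypes. RefSeq (GRCh38.p14) gave a window of 250 bases before to 50 after the start for 5 of the 6 genes. EIF2AK1 had no entry. Capitals mark matches to 6 motifs, searched on both strands except the TATA box, which was searched forward only. These were the interferon-stimulated response element GAAANNGAAA, the cyclic AMP response element TGACGTCA and its core TGACG, the C/EBP-ATF response element TGATGNAA, the NF-kB site (GGG, any 2 bases, TTTCC) and the TATA box TATAAA. The core lies within the full cyclic AMP element, where it matches on both strands.
EIF2AK2, chr2:37156971-37157000, minus strand, from 20 bases before the RefSeq start to base 10 of the transcript: gcggagtccaagggGAAAACGAAActgaga
PPP1R15A, chr19:48872251-48872400, plus strand, from 170 to 21 bases before the start: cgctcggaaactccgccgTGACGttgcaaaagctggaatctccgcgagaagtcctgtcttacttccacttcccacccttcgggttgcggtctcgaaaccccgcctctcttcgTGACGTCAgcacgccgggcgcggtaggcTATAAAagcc
PPP1R15B, chr1:204411908-204412057, minus strand, from 240 to 91 bases before the start: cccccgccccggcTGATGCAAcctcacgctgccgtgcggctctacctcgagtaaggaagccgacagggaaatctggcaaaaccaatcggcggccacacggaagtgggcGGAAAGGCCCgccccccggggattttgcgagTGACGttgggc

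In EIF2AK2 the interferon-stimulated response element match begins 6 bases before the RefSeq start and runs across it, and 3.57% of 35116 RefSeq windows of 300 bases hold such a match. PPP1R15A has a full cyclic AMP response element 58 to 51 bases before its start (1.85% of windows), a further core 152 to 148 bases before it (24.6%), and a TATA box 30 to 25 bases before it (7.33%). PPP1R15B has a C/EBP-ATF response element match 227 to 220 bases before its start (3.62%), a reverse-strand NF-kB match 132 to 123 bases before it (1.91%), and a cyclic AMP core 101 to 97 bases before it. The windows of EIF2AK3 and EIF2AK4 hold none of the 6 motifs. All positions count from the RefSeq start, base 48872421 for PPP1R15A, 37156980 for EIF2AK2 and 204411817 for PPP1R15B. The GENCODE v29 starts, used for the gene coordinates further below, differ, at 48872392, 37157065 and 204411791. Counted from those, the TATA box lies at the start of PPP1R15A and the EIF2AK2 match lies inside the gene. A match is a description of these letters and does not show that a factor binds there.

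PPP1R15A, which directs protein phosphatase 1 to eIF2 alpha during stress, rose in both genotypes. Its level was 18.1 FPKM in untreated and 896 FPKM in treated WT, and 17.6 FPKM in untreated and 340 FPKM in treated RLKO. The untreated groups were close, and the treated WT group was 2.64 times the treated RLKO group. The FPKM ratio was 49.5 in WT and 19.2 in RLKO, and on the spike-in scale the log2 change was 4.95 and 4.02 (q = 0.00180 and 0.0107 in the authors' deposited table). In treated WT 30 of 12181 protein-coding genes had an FPKM at or above that of PPP1R15A, itself included, where 5072 did in untreated WT. By the size of its log2 change it ranked 20 from the top in WT and 19 in RLKO.

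PPP1R15B, the paralogue usually described as constitutive, rose in WT. It stood at 14.6 FPKM in untreated and 42.2 FPKM in treated WT, a log2 change of 0.88 on the spike-in scale (q = 0.0395 in the authors' deposited table). In RLKO it stood at 17.3 and 29.5 FPKM, a log2 change of 0.57 that did not pass (q = 1.00 in the authors' deposited table). Both treated groups were above both untreated groups. Its change was above that of 94.3% of protein-coding genes in WT and 97.2% in RLKO. The passing of the threshold in WT and not in RLKO is no test of a difference between the genotypes.

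EIF2AK2, the kinase that binds double-stranded RNA, had higher levels after poly(I:C) in both genotypes but passed in neither. It was at 13.5 and 44.4 FPKM in untreated and treated WT, a ratio of 3.29 (log2 1.06 on the spike-in scale, q = 0.10 in the authors' deposited table). In RLKO it was at 20.8 and 38.2 FPKM, a ratio of 1.84 (log2 0.67, q = 1.00 in the authors' deposited table). The untreated RLKO level was 1.54 times the untreated WT level in FPKM, and the treated levels differed by a factor of 1.16 with WT the higher. Its log2 change exceeded that of 95.7% of protein-coding genes in WT and 97.7% in RLKO.

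EIF2AK1, the heme-regulated kinase, was the most abundant of the kinases in all 4 groups. It stood at 68.0 FPKM in untreated and 45.5 FPKM in treated WT, and at 76.3 and 88.6 FPKM in RLKO. The treated WT group was the lowest of the 4, and the treated RLKO group was 1.95 times as high. On the spike-in scale the log2 change was -1.18 in WT and 0.04 in RLKO, and neither passed (q = 0.594 and 1.00 in the authors' deposited table). Protein-coding genes of like abundance, at 30 to 100 FPKM in untreated RLKO cells, had median changes of -1.25 and -0.36.

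EIF2AK3, the kinase of the endoplasmic reticulum membrane, had its lowest FPKM in untreated WT, while after division by the spike-in factor both WT groups were close (8.97 untreated and 8.60 treated) and below both RLKO groups (12.5 and 10.8). It was at 7.10 FPKM there and at 10.4 FPKM in treated WT, and at 12.1 and 11.9 FPKM in untreated and treated RLKO. The untreated RLKO FPKM was 1.71 times that of untreated WT, and on the spike-in scale 2.39% of protein-coding genes had a lower ratio of untreated WT to untreated RLKO. Its WT change was -0.05 with the spike-in factor and 0.50 without it, so its direction depends on the scale. In RLKO the log2 change was -0.19 on the spike-in scale and 0.15 after median-ratio scaling over all kept genes.

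EIF2AK4, the kinase activated by uncharged tRNA, had the narrowest range of the 6 in FPKM as deposited, though not after division by the spike-in factor. Its levels were 11.1 and 10.7 FPKM in untreated and treated WT and 11.7 and 13.2 FPKM in RLKO. The log2 changes on the spike-in scale were -0.61 in WT and -0.01 in RLKO, and the RLKO value was 0.16 in FPKM as deposited. EIF2AK3 and EIF2AK4 did not pass in WT (q = 0.580 and 0.942 in the authors' deposited table) or in RLKO (q = 1.00 for both).

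**Figure D1:**
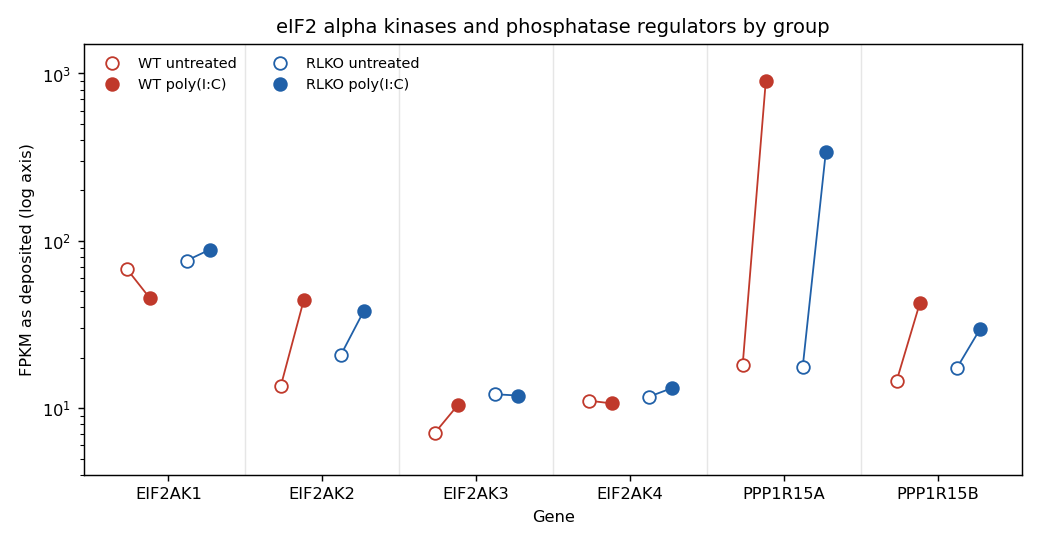
FPKM as deposited (vertical, log axis) of the 6 genes (horizontal) in untreated (open circles) and poly(I:C)-treated (filled circles) WT (red) and RLKO (blue) cells; each circle is the authors' pooled value of a group of 3 samples, with no error available, and lines join the groups of a genotype. PPP1R15A climbs from 18.1 to 896 FPKM in WT and from 17.6 to 340 FPKM in RLKO, while EIF2AK4 stays between 10.7 and 13.2 FPKM.

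In all, 2 of the 6 genes rose in WT and 1 in RLKO, and none fell. Over all 22087 kept genes 4.48% rose and 3.35% fell in WT, and 0.512% rose and 0.0272% fell in RLKO. Of the 4 kinases Cuffdiff called none in either genotype. EIF2AK2 alone had an unadjusted p under 0.05 in WT, and none had in RLKO. The share of all kept genes with an unadjusted p under 0.05 was not counted. Such counts, here and for the lists below, therefore have no background to be read against. The median log2 change of the 6 genes was 0.41 in WT and 0.30 in RLKO, against the protein-coding medians of -0.70 and -0.24. Relative to those medians 5 of the 6 lay above in WT, all but EIF2AK1, and 6 of 6 in RLKO.

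**Figure D2:**
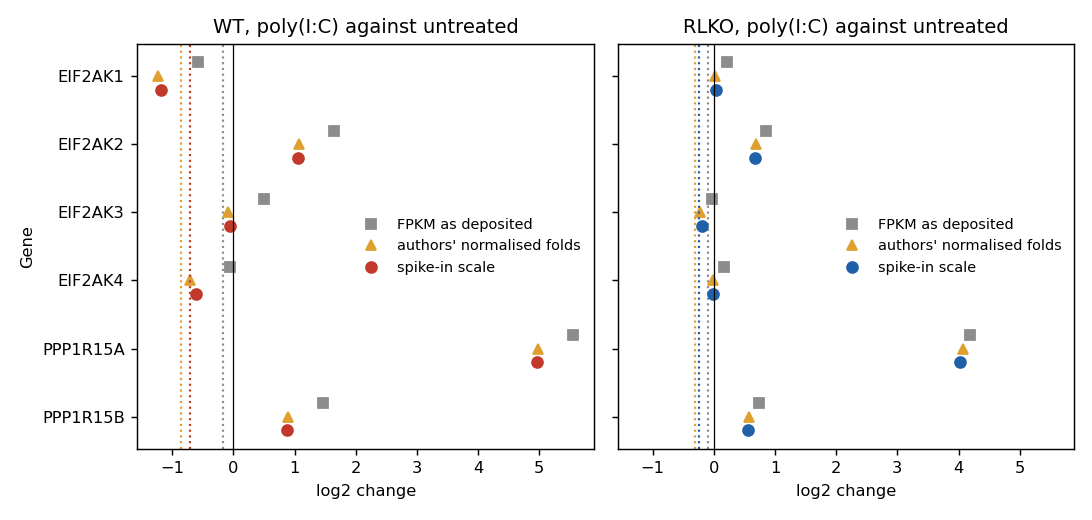
Log2 change after poly(I:C) (horizontal) of the 6 genes (vertical) in WT (left) and RLKO (right), from FPKM as deposited (squares), the authors' normalised folds (triangles, no pseudocount) and the spike-in scale (circles); dotted lines are the medians of protein-coding genes on each scale. PPP1R15A lies at 4.95 to 5.55 in WT on the 3 scales, and EIF2AK3 lies at 0.50 in WT from FPKM as deposited but at -0.05 on the spike-in scale.

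Since FPKM is a level per length of RNA, the kinases could be set against each other within a group. In untreated WT EIF2AK1 made up 68.2% of the summed kinase FPKM of 99.8, and EIF2AK2 13.5%. After poly(I:C) the sum was 111 FPKM, with EIF2AK1 at 41.0% and EIF2AK2 at 40.0%, so these 2 kinases stood at nearly equal levels. In RLKO the sum was 121 FPKM untreated and 152 FPKM treated, and EIF2AK2 made up 17.2% and 25.1%. The FPKM ratio of EIF2AK2 to EIF2AK1 was 0.199 and 0.977 in untreated and treated WT, and 0.272 and 0.430 in RLKO. These shares do not depend on how the libraries are scaled, but the sums do. Divided by the spike-in factor, the kinase sum was 126 in untreated and 91.5 in treated WT, lower after poly(I:C) where the FPKM sum was higher, and 124 and 138 in RLKO. They concern RNA and say nothing of the amount or activity of the kinases.

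The 2 phosphatase regulators began at similar levels and ended far apart. The FPKM ratio of PPP1R15A to PPP1R15B was 1.24 in untreated WT and 1.02 in untreated RLKO, and it was 21.2 and 11.5 after poly(I:C). Their sum relative to the sum of the kinases was 0.328 and 8.46 in untreated and treated WT, and 0.289 and 2.43 in RLKO. PPP1R15A made up 95.5% of the pair in treated WT and 92.0% in treated RLKO.

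**Figure D3:**
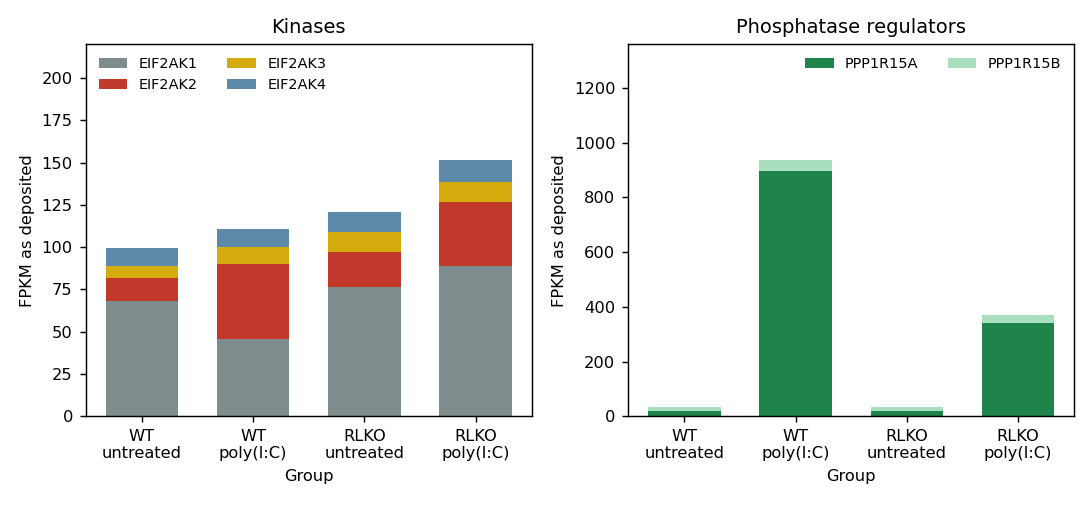
Summed FPKM as deposited (vertical, from 0) of the kinases (left) and of the phosphatase regulators (right) in each group (horizontal), stacked by gene; each segment is the authors' pooled value. EIF2AK2 fills 40.0% of the kinase bar in treated WT and 25.1% in treated RLKO, and PPP1R15A fills 95.5% and 92.0% of the regulator bars.

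The response in WT was next set beside that in RLKO, with no test. The difference, as the log2 change in WT minus that in RLKO on the spike-in scale, was 0.94 for PPP1R15A, 0.38 for EIF2AK2, 0.32 for PPP1R15B and 0.13 for EIF2AK3. It was -0.61 for EIF2AK4 and -1.21 for EIF2AK1. The median over protein-coding genes was -0.47, so 4 of the 6 lay above it, and EIF2AK4 and EIF2AK1 below. The difference of PPP1R15A exceeded that of 94.9% of protein-coding genes and that of EIF2AK1 exceeded 16.0%. Each of the 6 differences kept its sign on all 6 scalings and pseudocounts tried.

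The untreated levels of the genotypes can enter such a difference. On the spike-in scale the log2 ratio of untreated WT to untreated RLKO was -0.44 for EIF2AK3, -0.31 for EIF2AK2, 0.04 for PPP1R15B, 0.13 for EIF2AK1, 0.20 for EIF2AK4 and 0.32 for PPP1R15A. The protein-coding median was 0.24, and 1 of the 6, PPP1R15A, lay above it. In FPKM as deposited the values of EIF2AK1 and PPP1R15B were below 0 instead, at -0.16 and -0.23, and that of EIF2AK4 was -0.07. Between the treated groups the log2 ratio of WT to RLKO was 1.26 for PPP1R15A and -1.09 for EIF2AK1, the extremes of the 6.

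The table also lists transcript features that played no part in choosing these genes. The half-life, which the header credits to Tani et al. without a unit and which is read here as hours, was 2.17 for PPP1R15B, 2.56 for EIF2AK3 and 2.82 for PPP1R15A, all under the protein-coding median of 4. It was 8.67 for EIF2AK4, 9.33 for EIF2AK2 and 16.2 for EIF2AK1, all above the median. Protein-coding genes with a half-life under 3 h had a median log2 change of -0.27 in WT and -0.19 in RLKO, and those at 12 h or more -1.57 and -0.38. PPP1R15A, PPP1R15B and EIF2AK3 thus belong to the shorter-lived class with the higher median, EIF2AK1 to the longest-lived class with the lowest. Within that shorter-lived class EIF2AK3 had log2 changes of only -0.05 in WT and -0.19 in RLKO. EIF2AK2, at 9.33 h, lay at 1.06 in WT, where genes of 6 to 12 h had a median of -1.08. The part of half-life in any of these changes was not tested.

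Lengths and base composition differed among the 6. EIF2AK2 has the longest listed transcript, 10042 bases with a 3′ UTR of 8062 bases, longer than 97.8% of protein-coding 3′ UTRs. PPP1R15A has the shortest, 2378 bases with a 3′ UTR of 948 bases, and the highest GC content, 56.7% against a protein-coding median of 44.5%. The other 5 range from 38.6% GC in EIF2AK3 to 44.7% in EIF2AK1. The 5′ UTR is listed at 259 bases for PPP1R15A, 379 for PPP1R15B and 49 for EIF2AK4.

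Other genes of the pathway were counted from lists drawn up with earlier results of these data known. Each count of called genes is to be read against the shares over all kept genes. Counts of genes with an unadjusted p under 0.05 have no such share. In WT 4.48% rose and 3.35% fell, and in RLKO 0.512% rose and 0.0272% fell. Of 9 subunits of eIF2 and eIF2B with eIF5, 1 fell in WT and none rose; in RLKO Cuffdiff called none, and 1 had an unadjusted p under 0.05. EIF2B3, a subunit of the exchange factor, fell from 53.3 to 12.4 FPKM in WT (log2 -2.61, q = 0.0225 in the authors' deposited table) and was at 45.1 and 24.9 FPKM in RLKO. EIF2S1, the alpha subunit that all these kinases phosphorylate, was at 603 and 157 FPKM in WT without passing (q = 0.224) and at 585 and 325 FPKM in RLKO. The list's median log2 change was -1.44 in WT and -0.40 in RLKO, and in FPKM as deposited it was -0.85 and -0.23. For comparison, protein-coding genes at 30 to 100 FPKM in untreated RLKO cells had medians of -1.25 and -0.36, and those at 100 to 300 FPKM had -1.90 and -0.63.

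None of the 3 catalytic subunits of protein phosphatase 1 passed with Cuffdiff in either genotype, though 2 had an unadjusted p under 0.05 in WT and none in RLKO. PPP1CC was at 335 and 82.7 FPKM in WT (log2 -2.62, q = 0.0591 in the authors' deposited table) and at 225 and 122 FPKM in RLKO. PPP1CB was at 211 and 64.4 FPKM in WT and at 171 and 120 FPKM in RLKO. The FPKM of the catalytic partners was thus lower in treated than untreated WT, where that of PPP1R15A was higher. Lower levels were common at such abundance. Protein-coding genes at 100 to 300 FPKM in untreated RLKO cells, among them PPP1CB and PPP1CC, had a median log2 change of -1.90 in WT. Their lower quartile was -2.46. PPP1CB, at -2.31, lay above that quartile and PPP1CC, at -2.62, below it. Of 23 other regulatory subunits of the phosphatase, 18 passed the filter, and 3 (PPP1R10, PPP1R11 and PPP1R18) were listed at 0 in all groups. Cuffdiff called none of the 18, and none had an unadjusted p under 0.05, in WT or in RLKO. Their median log2 change was -0.33 in WT and -0.27 in RLKO, and in FPKM as deposited 0.20 and -0.10. By the mean FPKM over the 4 groups the most abundant were PPP1R7, at 91.0 and 36.6 FPKM in WT, and PPP1R12A, at 43.0 and 55.5 FPKM. The list did not hold all regulatory subunits of the phosphatase. PPP1R27 and PPP1R36, outside it, had log2 changes of 1.52 and 0.97 in WT and of -0.02 and -0.003 in RLKO. Further subunits outside the list were not counted.

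Of 14 activators and inhibitors of the kinases Cuffdiff called none in either genotype, while 2 in WT and 1 in RLKO had an unadjusted p under 0.05. ADAR, which edits double-stranded RNA and limits EIF2AK2, was at 63.7 and 143 FPKM in WT (q = 0.103 in the authors' deposited table) and at 63.6 and 116 FPKM in RLKO. It was the 1 member of that list with a log2 change above 0 on the spike-in scale, in either genotype (0.55 and 0.68). The chaperone HSP90AA1, which holds EIF2AK1 among its clients, was at 1617 and 296 FPKM in WT and at 1552 and 688 FPKM in RLKO, without passing. The list's median was -0.999 in WT and -0.24 in RLKO. ADAR was singled out after its values were seen.

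Among 5 measured other sensors of the unfolded protein response and their factors, 1 rose in WT, against 4.48% of all kept genes. ERN1 (IRE1 alpha), the sensor kinase that works beside EIF2AK3, rose from 3.81 to 13.9 FPKM in WT (log2 1.10, q = 0.0194 in the authors' deposited table) and was at 3.58 and 4.60 FPKM in RLKO. In RLKO Cuffdiff called none of the 5, and none had an unadjusted p under 0.05. Of 16 measured genes of the ATF4 arm downstream of eIF2 alpha phosphorylation, ATF4 included, 2 rose and 3 fell in WT, and 1 rose in RLKO. Over all kept genes 4.48% rose and 3.35% fell in WT, and 0.512% rose in RLKO. An unadjusted p under 0.05 was listed for 8 of the 16 in WT and 3 in RLKO, and the share over all kept genes was not counted. The median log2 change of the 16 was -0.50 in WT and -0.12 in RLKO. ATF3 rose from 2.90 to 222 FPKM in WT and from 2.31 to 64.7 FPKM in RLKO. ATF4 itself, singled out after its values were seen, was at 137 and 160 FPKM in WT and 130 and 127 FPKM in RLKO. ASNS fell from 102 to 19.3 FPKM and PHGDH from 52.2 to 16.1 FPKM in WT, and in RLKO they stood at 102 and 66.6 FPKM and at 40.7 and 42.4 FPKM.

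EIF2AK2 shares its ligand with other enzymes and sensors of double-stranded RNA. Of 10 measured, 5 rose in WT and 4 in RLKO, against 4.48% and 0.512% of all kept genes. The median log2 changes of the 10 were 2.38 and 2.46. OASL had log2 changes of 6.59 and 6.57 and IFIH1 of 6.07 and 5.09, so the 1.06 and 0.67 of EIF2AK2 lay below the median of that list in both genotypes. EIF2AK2 began at 13.5 FPKM in untreated WT, above OASL at 0.776 and IFIH1 at 0.707 FPKM. From levels nearer to its own, and named after their values were seen, OAS3 rose from 17.7 to 97.8 FPKM in WT (log2 1.81) and DDX58 from 11.2 to 141 FPKM (log2 2.96).

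**Figure D4:**
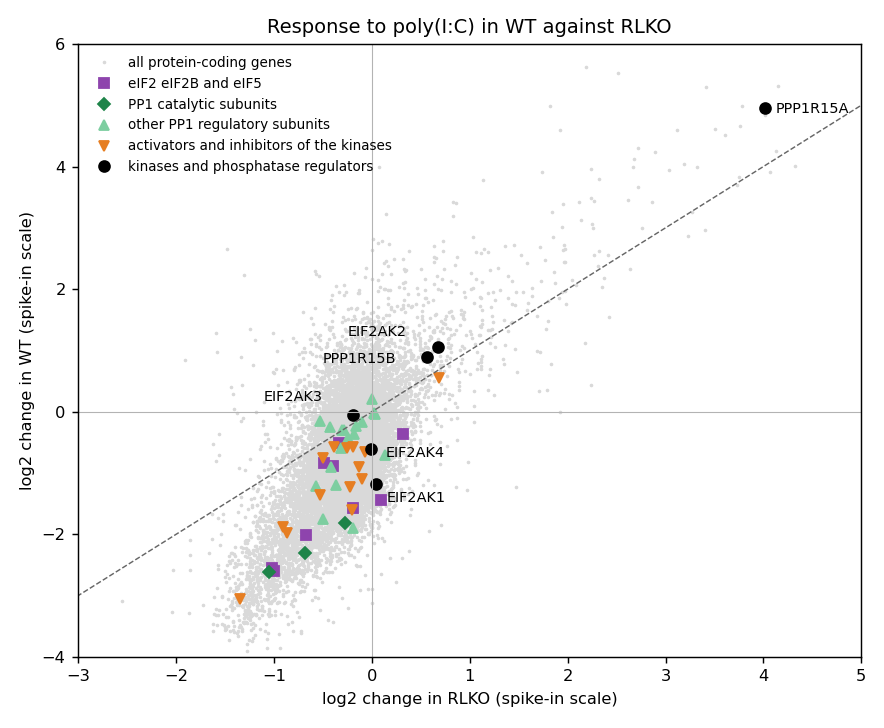
Log2 change in RLKO (horizontal) against WT (vertical) on the spike-in scale for 12181 protein-coding genes (grey; 17 lie outside the axes), the 6 genes (black) and 4 pathway lists (coloured); the dashed line marks equal changes. PPP1R15A, EIF2AK2, PPP1R15B and EIF2AK3 lie above the line. EIF2AK1 and EIF2AK4 lie below it, as do 8926 of the 12181 protein-coding genes and most genes of each of the 4 lists.

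Genes of similar pattern were sought by the distance between log2 levels over the 4 groups, each gene centred on its own mean, among protein-coding genes within 4 times of the member's mean FPKM. With 4 pooled values per gene this describes a shape and no more. The nearest to PPP1R15A, of 1277 candidates, was TNFAIP3, an inhibitor of NF-kB signalling, at a distance of 0.11, with 4.98 and 251 FPKM in WT and 4.22 and 93.9 FPKM in RLKO. Next came PMAIP1 and ZC3HAV1, at 0.95 and 0.96. Nearest to EIF2AK2 were KDM6A, PIK3R1 and IL15 (0.08 to 0.12). KDM6A, at 7.12 and 24.02 FPKM in WT, passed there (q = 0.00944 in the authors' deposited table) where EIF2AK2, with a nearly equal log2 change, did not.

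BCL10, CDC42EP3 and CYLD were nearest to PPP1R15B (0.05 to 0.11). BCL10, at 11.5 and 34.7 FPKM in WT, did not pass (q = 0.245 in the authors' deposited table) where PPP1R15B did. The nearest to EIF2AK1 were DLAT, MSH6 and ARHGAP12, to EIF2AK3 BAZ2B and USP37, and to EIF2AK4 UBE3A and DCLRE1B, at distances of 0.03 to 0.07. Among the 6 themselves the nearest pair was EIF2AK2 and PPP1R15B, at 0.35, and the farthest EIF2AK1 and PPP1R15A, at 5.32.

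The sources used here do not say whether the libraries kept the strand of the RNA, so reads of a gene and of one overlapping it on the other strand may not be told apart. PPP1R15A lies on chromosome 19 (48872392 to 48876057, plus strand, GRCh38, GENCODE v29) between PLEKHA4 and TULP2, both on the minus strand. PLEKHA4, whose start lies 3.76 kb upstream, rose from 0.385 to 69.4 FPKM in WT and from 0.290 to 14.1 FPKM in RLKO (q = 0.00180 and 0.0107 in the authors' deposited table). TULP2, whose end lies 4.91 kb past the end of PPP1R15A, was listed at 0 in untreated WT and stood at 226 FPKM in treated WT (q = 0.00180). In RLKO TULP2 was at 0.241 and 2.34 FPKM and did not pass (q = 0.579). NUCB1, on the plus strand beyond TULP2, was at 44.0 and 46.6 FPKM in WT and 42.8 and 43.1 FPKM in RLKO.

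The treated WT level was 2.64 times the treated RLKO level for PPP1R15A, 4.92 times for PLEKHA4 and 96.5 times for TULP2. The 3 neighbouring genes thus differed between treated genotypes by very unequal factors. TULP2 runs toward PPP1R15A on the opposite strand, and whether its listed level comes from its own strand was not tested.

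**Figure D5:**
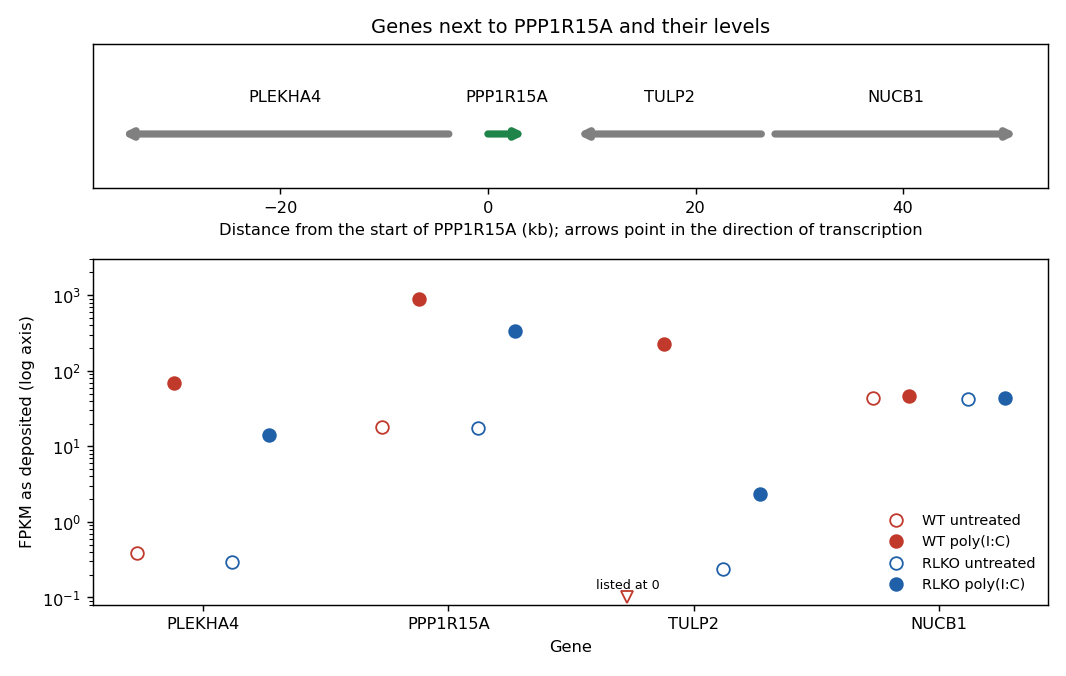
Positions of PPP1R15A and its neighbours by distance from its start in kb (top, arrows in the direction of transcription), and their FPKM as deposited (bottom, log axis) in each group; circles are the authors' pooled values and the triangle marks a value listed at 0. TULP2 stands at 226 FPKM in treated WT and 2.34 FPKM in treated RLKO, while NUCB1 stays between 42.8 and 46.6 FPKM.

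The other 5 genes lie at chromosome 7 (6022244 to 6059230, EIF2AK1), chromosome 2 (37099210 to 37157065, EIF2AK2, and 88556741 to 88627576, EIF2AK3), chromosome 15 (39934146 to 40035591, EIF2AK4) and chromosome 1 (204403387 to 204411791, PPP1R15B). All but EIF2AK4 are on the minus strand. Kept genes within 30 kb numbered 8 for EIF2AK1, 3 for EIF2AK2, 1 for EIF2AK3, 3 for EIF2AK4 and 4 for PPP1R15B. The authors' deposited table called none of them in either genotype. Over all kept genes 4.48% rose and 3.35% fell in WT, and 0.512% and 0.0272% in RLKO. TEX37, 27.2 kb past the end of EIF2AK3, was below the filter. It was listed at 0 and 0.506 FPKM in untreated and treated WT (q = 0.00180 in the authors' deposited table). EIF2AK2 encloses the processed pseudogene AC007899.1, listed at 1.31 and 6.87 FPKM in WT and 1.05 and 2.96 FPKM in RLKO. PPP1R15B lies wholly within the antisense gene AL606489.1, at 1.80 and 2.99 FPKM in WT. The processed pseudogene AL606489.2, 8.61 kb past the end of PPP1R15B, was at 2.31 and 28.9 FPKM in WT and 4.35 and 3.36 FPKM in RLKO without passing (q = 0.506 and 1.00). EIF2AK1 overlaps the end of AIMP2, an abundant gene on the other strand at 82.3 and 32.3 FPKM in WT, by 1591 bases; its part in the EIF2AK1 level was not tested.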

How the data were processed

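RNA abundance in 12 samples (3 in each of 4 groups) was analysed from 1 table. Per the submitters' processing notes, Cuffdiff 2.2.1 was used on GRCh38.p12, along with TopHat2 2.0.6 and Bowtie2 2.0.2. Trimmomatic 0.32 and FastQC are also listed, and no settings are given. The authors' table has 1 FPKM level for each group, per the file headers, and Cuffdiff p-values and q-values of treated against untreated WT and RLKO cells. The deposited table also holds a normalised fold, treated here as a score with no further use than an alternative scale, and GC content in percent, lengths and half-lives, per the file headers. The normalised folds equal the FPKM ratio divided by 1.56 in WT and 1.14 in RLKO. The per-group values carry no depth and no spread. A further 15 columns of the table were not used.

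Of 58763 rows, 92 were ERCC RNAs, 86 marked HIDATA by Cuffdiff were left out, and 45 repeated an identifier. Rows with at least 1 FPKM in 1 group were kept. Spike-in factors were medians over the 49 ERCC RNAs whose mean reached 1 FPKM. Changes used a pseudocount of 1, which understates those of low genes. Gene classes and coordinates came from GENCODE v29. The members and lists were chosen with earlier results of these data known. Named beside the 6 genes were up to 3 called genes per list with the largest change (the 2 most abundant where fewer than 2 were called), and up to 3 genes of most similar pattern per member; some genes that the rule names are not reported here. Neighbouring genes, EPCAM and the other markers, ADAR, ATF4, OAS3, DDX58, PPP1R27 and PPP1R36 were named outside that rule. Alternatives were a q threshold of 0.01, p-values adjusted by Benjamini-Hochberg over kept rows, other filters, a pseudocount of 0.1, other scales and, chosen after seeing the data, the authors' normalised folds. Code was tested on simulated data. Python 3.11 was used.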

Additional observations from a re-analysis of the deposited data

How the results depend on the processing

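The table pools the samples of a group, so no replicate could be left out. No paired analysis was possible because the deposited columns hold no values of single samples. At a q threshold of 0.01 the number of the 6 genes called was 1 in WT (PPP1R15A) and 0 in RLKO, where the lowest q of the table is 0.0107; over all kept genes 626 rose and 247 fell in WT, and 0 rose and 0 fell in RLKO. With at least 5 FPKM in 1 group 474 genes rose in WT. The other alternatives left the number of the 6 genes called at 2 in WT and 1 in RLKO. Without spike-in scaling the log2 change of EIF2AK3 in WT was 0.50, and 0.44 on a median-ratio scale; in RLKO that of EIF2AK3 was 0.15 on the median-ratio scale, and that of EIF2AK4 was 0.16 in FPKM as deposited and 0.34 on the median-ratio scale. These values had not passed the threshold; by construction the scales differ in 1 factor per group. PPP1R15A stayed between 4.93 and 5.55 in WT and between 4.01 and 4.38 in RLKO, and PPP1R15B between 0.86 and 1.47 in WT. The difference of the responses ranged from 0.91 to 1.36 for PPP1R15A and from -1.25 to -0.79 for EIF2AK1, and no member's difference moved by more than 1.5 times as a ratio. Read depth is unknown and sets an unknown limit on the low levels of EIF2AK3 and EIF2AK4.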
